A study of Homo sapiens with 36 samples.

Results

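The genes described belong to 1 signalling route: IL10, JAK1, JAK2, STAT3, SOCS1, SOCS2, SOCS3, PIM1 and PIM2. They were chosen by name, as the transcription factor STAT3 with the kinases that activate it, the suppressors that switch it off, a cytokine that feeds it and the kinase genes it induces. These 9 are among 2549 genes of a fixed panel, whose RNA was measured in 36 established lymphoma lines by targeted sequencing, each line once. SOCS3 was higher in ABC, mantle cell and marginal zone or hairy cell lines than in germinal centre-like lines. STAT3 and PIM2 were higher in ABC lines, as set out after the levels. Alone among these differences, SOCS3 in ABC lines passed the test in every alternative fit. Each of the others fell short in at least 1 of them, with another test or with 1 line left out.

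The labels name the lines and no treatment. Lymphoma types were assigned here from what each named line is known to be. The activated B-cell-like type of diffuse large B-cell lymphoma (ABC) had 5 lines, HBL1, RIVA, SUDHL2, TMD8 and U2932. Mantle cell lymphoma (MCL) had 9, GRANTA519, JEKO1, JVM2, MAVER1, MINO, REC1, SP49, SP53 and UPN1. Marginal zone lymphoma and hairy cell leukaemia (MZL/HCL), small B-cell tumours pooled here, had 5, HAIR_M, HC_1, KARPAS1718, SSK41 and VL51. MEC1, from chronic lymphocytic leukaemia, and the large B-cell lines FARAGE and RCK8, whose cell of origin was not settled, entered no comparison of types. The germinal centre B-cell-like type (GCB), against which the other types were set, had 14 lines, DB, DOHH2, KARPAS422, OCILY1, OCILY7, OCILY8, OCILY18, OCILY19, SUDHL4, SUDHL6, SUDHL10, SUDHL16, TOLEDO and WSU_DLCL2. Each line is an immortalised culture that grew out of 1 tumour, so lines of a type served as its replicates and a p-value measures the spread between lines.

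In this route a cytokine such as IL-10 or IL-6 binds its receptor, receptor-bound JAK kinases phosphorylate STAT3, and STAT3 dimers enter the nucleus and bind DNA. Among the genes that STAT3 switches on are SOCS3, whose protein blocks the receptor and its JAK kinase, and the PIM serine/threonine kinases, which promote survival and growth. In ABC lymphoma, receptor and Toll-like signalling through NF-kB is known to induce IL-6 and IL-10, which act back on the same cells. JAK2 lies beside the checkpoint ligand genes CD274 and PDCD1LG2 on chromosome 9, a stretch often gained in Hodgkin and mediastinal B-cell lymphoma, and SOCS1 is often mutated in the same tumours. STAT3 activity depends on phosphorylation, which RNA counts do not measure.

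Library totals were between 6422917 counts (HAIR_M) and 13451527 counts (SUDHL6), and the median was 10476681. Levels are given as CPM, each library's counts scaled to its total times a TMM factor, which ran from 0.602 in OCILY8 to 1.87 in MEC1. They are levels of 1 target each and, apart from the marker sums below, were not compared between genes. They are averages over a culture, in which fewer expressing cells and less RNA per cell cannot be told apart. The highest of 10 control probes had a median of 1.06 CPM, and it reached 19.3 CPM in MEC1, the library that stood apart, and at most 5.47 CPM in the other 35. MEC1 also had the lowest summed level of 6 B-cell markers (4550 CPM, against 81200 CPM in KARPAS1718) and the highest of 4 T and NK cell markers (553 CPM, against 4.19 CPM in SUDHL4) and of 7 myeloid markers (887 CPM, against 32.2 CPM in SUDHL6). The 5 germinal centre markers summed to medians of 186 CPM in ABC, 232 CPM in MCL and 299 CPM in MZL/HCL, against 2990 CPM in GCB, where MME, the surface marker CD10, was at least 326 CPM in all 14 lines. Summed levels of 4 activated-type markers, which include PIM1, had medians of 3120 CPM in ABC, 1660 CPM in MCL, 2660 CPM in MZL/HCL and 264 CPM in GCB, and those of 2 plasma cell markers 978, 930, 749 and 381 CPM in the same order. A line was flagged where the germinal centre sum exceeded the activated-type sum in ABC, MCL or MZL/HCL, or the reverse in GCB. These sums went against the assigned type in 3 lines. U2932 (ABC) had 1250 CPM of germinal centre and 1150 CPM of activated-type markers. SSK41 (MZL/HCL) had 3800 and 1910 CPM, and the GCB line DOHH2 438 and 2820 CPM. This rule sets unlike targets against each other, so the small difference in U2932 does not place that line. CCND1, the cyclin gene whose translocation defines mantle cell lymphoma, was low for the type in 5 of the 9 MCL lines: it was at least 2050 CPM in MAVER1, MINO, GRANTA519 and JVM2, and 91.2 CPM in REC1, 27.4 in SP49, 13 in UPN1, 8.77 in JEKO1 and 7.9 in SP53. CCND1 was read by 1 target, and whether a limit of that target or swapped libraries lay behind the low values was not tested. The low values alone do not show that these lines are of another type. Comparisons of types are therefore also given without U2932, SSK41 and DOHH2, and those with MCL without the 5 lines low in CCND1, both choices made after seeing the data. The activated-type markers were IRF4, CCND2, BATF and PIM1, so fits without U2932, SSK41 and DOHH2 are no independent check of these genes. Fits without the 5 MCL lines are likewise none of CCND1. No member's lines fell into separate clusters.

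The sequences before the transcription starts of STAT3, SOCS3 and PIM2 are shown because these are the members that were higher in ABC than in GCB lines. Each run is the 250 bases before the start lying farthest upstream in RefSeq (GRCh38.p14), given 5′ to 3′ on the gene's strand, and all 3 genes lie on the minus strand. The STAT3 window is chr17:42388443-42388692, the SOCS3 window chr17:78360926-78361175 and the PIM2 window chrX:48919025-48919274. Capitals mark matches, on either strand, to 3 motifs picked with the sequences in view.
STAT3: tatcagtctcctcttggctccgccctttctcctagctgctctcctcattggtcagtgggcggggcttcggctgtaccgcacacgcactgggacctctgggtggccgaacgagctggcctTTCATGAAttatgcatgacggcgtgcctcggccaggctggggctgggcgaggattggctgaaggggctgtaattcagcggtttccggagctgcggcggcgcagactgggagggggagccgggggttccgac
SOCS3: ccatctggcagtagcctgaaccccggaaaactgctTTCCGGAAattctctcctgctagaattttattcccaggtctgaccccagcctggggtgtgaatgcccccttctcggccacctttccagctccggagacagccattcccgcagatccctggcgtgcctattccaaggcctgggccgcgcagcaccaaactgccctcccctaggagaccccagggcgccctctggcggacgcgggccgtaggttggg
PIM2: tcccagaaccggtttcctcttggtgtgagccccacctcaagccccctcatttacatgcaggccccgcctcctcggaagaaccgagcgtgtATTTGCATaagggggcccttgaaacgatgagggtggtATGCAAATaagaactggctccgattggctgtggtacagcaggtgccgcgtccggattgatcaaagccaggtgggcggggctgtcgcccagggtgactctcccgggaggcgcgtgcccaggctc
The STAT3 and SOCS3 windows each held 1 match to TTCNNGAA, the palindrome of STAT sites with a shorter spacer, beginning 131 bases before the STAT3 start and 215 bases before the SOCS3 start. The PIM2 window held 2 matches to ATGCAAAT, the octamer bound by OCT factors, beginning 160 and 123 bases before the start. RefSeq had windows for 8 of the 9 members, 16 in all, and SOCS2 had no entry. TTCNNGAA was in 3 of these 16 windows (STAT3, SOCS3 and JAK1) and in 6.62% of 35116 windows of all genes, and ATGCAAAT was in 1 of them and in 1.63% of all windows. TTCNNNGAA, the usual STAT site, was in none of the 16 member windows and in 6.57% of all windows. The 2 SOCS3 windows, chr17:78360926-78361175 and chr17:78359668-78359917, leave out the bases just before 78360077, where GENCODE places the gene's start. That stretch of the SOCS3 promoter was not searched. No match says only that these letters are not in the window.

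IL10 encodes the secreted cytokine interleukin 10 (chromosome 1, 206767602 to 206772494, GRCh38). Its level was 88 CPM in SUDHL2, 64.9 in TMD8, 60.2 in U2932, 38 in HBL1 and 2.99 in RIVA, the ABC lines. Among MCL lines it was highest in MAVER1 (75.9 CPM), with a median of 8.88 and a lowest value of 0.514 CPM in UPN1, and among MZL/HCL lines it ran from 1.24 CPM in HAIR_M to 10.6 CPM in SSK41. The GCB lines had a median of 0.773 CPM, and 12 of 14 were under 10 CPM. The other GCB lines were OCILY1 at 21.6 CPM and SUDHL16 at 197 CPM, the highest of all 36 lines. IL10 was not above the library's highest control probe in 7 of 14 GCB lines, 2 MCL lines, 1 MZL/HCL line and RCK8, and it was above it in all 5 ABC lines. All 5 ABC lines lay above the GCB median and none above SUDHL16.

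JAK1 and JAK2 encode the kinases that sit on cytokine receptors. JAK1 (chromosome 1, 64833229 to 64966504) was narrowest in the ABC lines, 897 CPM in RIVA, 824 in SUDHL2, 776 in HBL1, 676 in TMD8 and 629 in U2932. It ran from 61.4 CPM in GRANTA519 to 1620 CPM in MAVER1 among MCL lines, from 128 CPM in HC_1 to 1710 CPM in HAIR_M among MZL/HCL lines, and from 145 CPM in DB to 1070 CPM in OCILY8 among GCB lines. GRANTA519 and HC_1 lay below every GCB line. JAK2 (chromosome 9, 4984390 to 5128183) was highest in FARAGE at 730 CPM, then in VL51 at 613, SP53 at 502 and GRANTA519 at 453 CPM. Its medians were close between types, 241 CPM in ABC, 174 in MCL, 304 in MZL/HCL and 175 in GCB, and its ranges overlapped. The lowest JAK2 was 45.9 CPM in OCILY1.

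STAT3 (chromosome 17, 42313324 to 42388568) was expressed in every line, from 102 CPM in JEKO1 to 2130 CPM in SUDHL2. The ABC lines split widely: SUDHL2 had 2130 CPM and TMD8 1880 CPM, HBL1 553, U2932 259 and RIVA 163 CPM. Counting intervals (exact Poisson, 95%, counting error only) put SUDHL2 at 2100 to 2160 CPM and TMD8 at 1860 to 1900 CPM, so the intervals of the highest 2 lines did not overlap. In MCL the highest was JVM2 at 998 CPM and the median 221 CPM, in MZL/HCL VL51 at 761 CPM and 344 CPM, and RCK8 had 1010 CPM. GCB lines ran from 114 CPM in KARPAS422 to 480 CPM in SUDHL16, with a median of 236 CPM. Thus 3 of 5 ABC, 2 of 9 MCL and 1 of 5 MZL/HCL lines lay above the highest GCB line, and 2 ABC lines, U2932 and RIVA, lay inside the GCB range.

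SOCS3, the feedback inhibitor that STAT3 itself induces (chromosome 17, 78356778 to 78360077), had more lines of the other types above the highest GCB line than any other member. It had 133 CPM in HBL1, 124 in TMD8, 50.2 in SUDHL2, 26.4 in U2932 and 11 in RIVA among ABC lines. Among MCL lines it had 505 CPM in SP49, 218 in JVM2 and 76.9 in SP53, and the other 6 ranged from 1.48 CPM in UPN1 to 9.36 CPM in REC1. The MZL/HCL lines VL51, HAIR_M, SSK41 and HC_1 had 58.4, 37.2, 27.9 and 27.5 CPM, while KARPAS1718 had 2.33 CPM. No GCB line passed 7.26 CPM, the level in DOHH2, and their median was 3.08 CPM. All 5 ABC lines, 5 of 9 MCL lines and 4 of 5 MZL/HCL lines therefore lay above the highest GCB line. For the MCL lines MAVER1 (7.47 CPM, counting interval 5.56 to 9.82) and REC1 (7.82 to 11.1) the interval overlapped that of DOHH2 (5.95 to 8.78). GCB levels were low but mostly measurable, with 12 of 14 lines above their highest control probe and OCILY7 and SUDHL16 not. MEC1 had 31.8 CPM of SOCS3, RCK8 12.4 CPM and FARAGE 4.2 CPM.

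SOCS1, which binds and blocks JAK kinases directly (chromosome 16, 11254405 to 11256200), had another order. It was highest in JVM2 (2770 CPM), VL51 (2410), HAIR_M (2150) and MAVER1 (2040), and all 5 MZL/HCL lines had at least 529 CPM. ABC lines ran from 61.7 CPM in RIVA to 713 CPM in U2932 and GCB lines from 5.29 CPM in DB to 1480 CPM in SUDHL4, with similar medians of 243 CPM in ABC and 228 CPM in GCB. DB was the only line under 10 CPM, and REC1 followed at 29.7 CPM. SOCS2, a suppressor best known for restraining growth hormone signalling (chromosome 12, 93569814 to 93583487), was low throughout, from 3.13 CPM in DB to 43.4 CPM in OCILY19 with a median of 8.62 CPM. SOCS2 level moved with the TMM factor across the 36 lines (r = 0.642, rho = 0.701, as a description of points that share that factor), and the part of the factor in its order was not tested. For the other 8 members r with the factor lay between -0.178 and 0.339.

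PIM1 and PIM2 encode related survival kinases. PIM1 (chromosome 6, 37170203 to 37175426) had 3160 CPM in HBL1, 1960 in RIVA, 685 in SUDHL2, 412 in TMD8 and 323 in U2932, the ABC lines. MCL lines ran from 42.4 CPM in JVM2 to 1180 CPM in JEKO1 and MZL/HCL lines from 51 CPM in HC_1 to 900 CPM in KARPAS1718. GCB lines covered the widest range, from 3.19 CPM in WSU_DLCL2 and 3.25 CPM in DB to 973 CPM in SUDHL6, with a median of 85.1 CPM. The ABC lines all lay above that median, and HBL1 and RIVA above every GCB line. PIM2 (chromosome X, 48913182 to 48919024) had 5410 CPM in SUDHL2, 2470 in TMD8, 1880 in HBL1, 1510 in RIVA and 689 in U2932. It ran from 85 CPM in GRANTA519 to 2320 CPM in MINO among MCL lines, from 199 CPM in HC_1 to 1020 CPM in VL51 among MZL/HCL lines, and from 80.9 CPM in KARPAS422 to 1310 CPM in TOLEDO among GCB lines. The ABC lines other than U2932 lay above the highest GCB line.

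**Figure D1:**
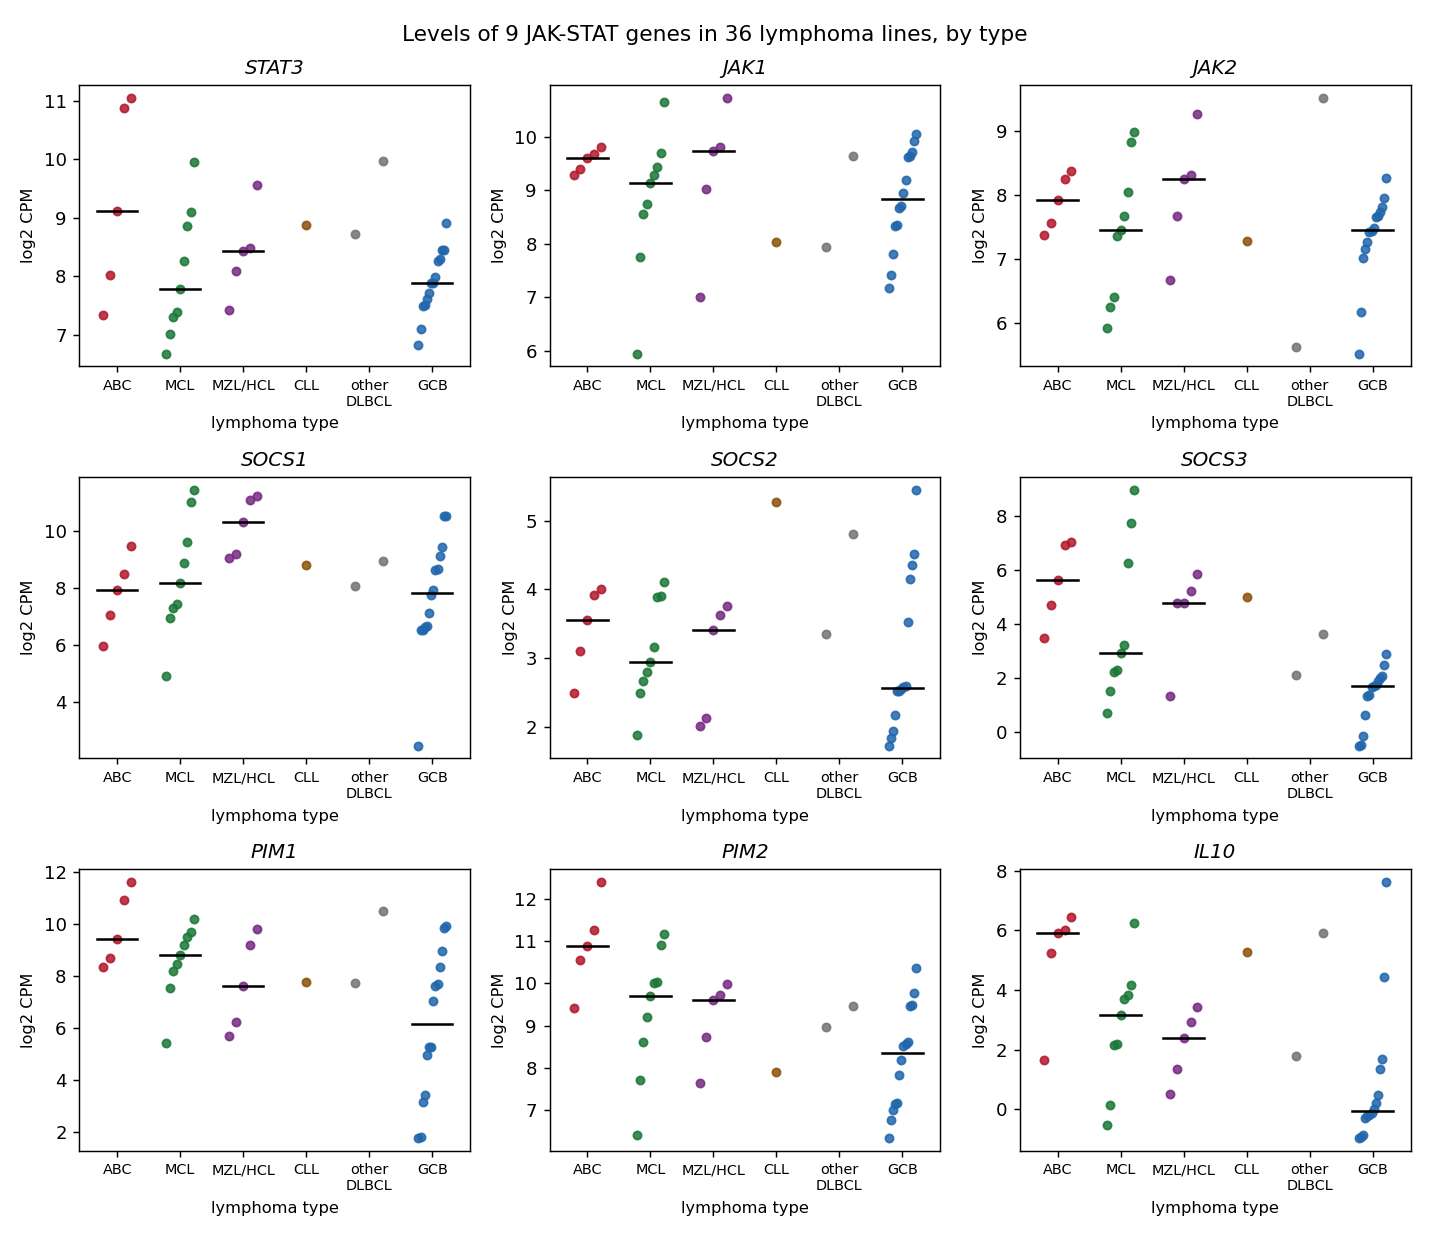
Each panel plots 1 gene in log2 CPM (vertical axis, own scale) for the 36 lines by lymphoma type, with points for lines and a black bar for the median of types of 5 or more. SOCS3 in ABC lines (11 to 133 CPM) lies wholly above GCB lines (at most 7.26 CPM), while JAK1, JAK2 and SOCS2 overlap between all types.

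Spread across lines differed between the members. The SD of log2 CPM was 2.51 for IL10, 2.48 for PIM1, 2.39 for SOCS3, 1.89 for SOCS1 and 1.47 for PIM2, and it was 1.05 for STAT3, 1.05 for JAK1, 0.99 for SOCS2 and 0.94 for JAK2. Counting error accounted for 3.13% of the variance of SOCS2 and less in the other 8 genes. No line was highest in more than 1 gene except SUDHL2, which led in both STAT3 and PIM2.

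**Figure D2:**
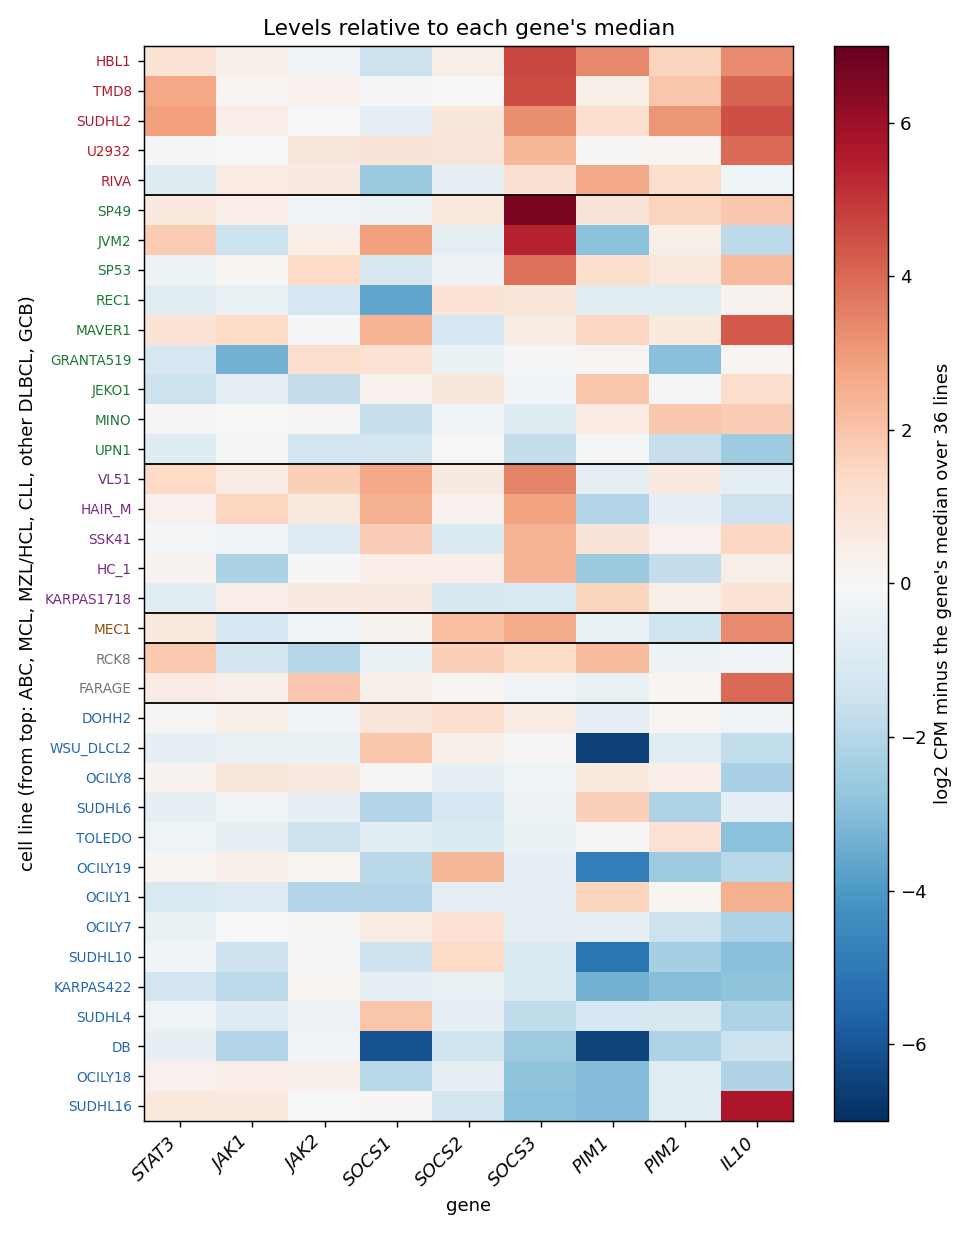
Rows are the 36 lines, grouped by type and ordered by SOCS3 within each, columns the 9 genes, and colour the log2 CPM minus the gene's median over all lines. The lines above the median in SOCS3, PIM2 and IL10 together are 8, the ABC lines HBL1, SUDHL2, TMD8 and U2932, the MCL lines MAVER1, SP49 and SP53, and SSK41 of MZL/HCL, and SUDHL16 combines the lowest SOCS3 (0.524 CPM) with the highest IL10 (197 CPM).

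ABC lines were first set against GCB lines. SOCS3, PIM2 and STAT3 were higher in ABC, by 4.53 ± 0.85, 2.51 ± 0.55 and 1.98 ± 0.45 log2 units (SE, 5 against 14 lines), with adjusted p of 0.00213, 0.0103 and 0.0131 in the edgeR quasi-likelihood test with Benjamini-Hochberg adjustment over 2406 genes. On a linear scale these are 23.2-fold, 5.71-fold and 3.94-fold. Across all genes 42 passed the same threshold of 0.05, or 1.75%, with 34 higher (1.41%) and 8 lower, whereas the DESeq2 Wald test called 125, with 52 higher and 73 lower. PIM1 gave 2.44 ± 0.86 (adjusted p = 0.177) and IL10 1.63 ± 1.15 (adjusted p = 0.531), and neither passed the test despite ABC medians of 685 CPM against 85.1 CPM and 60.2 CPM against 0.773 CPM in GCB. JAK1 at 0.49, JAK2 at 0.49, SOCS1 at -0.50 and SOCS2 at -0.01 had adjusted p of 0.631 or more. The STAT3 call rested on single lines, since without SUDHL2 the difference was 1.5 (adjusted p = 0.172) and without TMD8 1.62 (adjusted p = 0.107), and the PIM2 call was lost without SUDHL2 (1.97, adjusted p = 0.101). Under limma-voom STAT3 lost its call (1.41, adjusted p = 0.149) and PIM1 and IL10 gained one (3.71 and 4.46, adjusted p of 0.0334 and 0.0123), and on the authors' log2 values STAT3 and PIM2 lost theirs (1.34 and 2.62, adjusted p of 0.19 and 0.0542). Without U2932, SSK41 and DOHH2, SOCS3, PIM2 and STAT3 were again the members past the threshold, at 4.91, 2.83 and 2.25 (adjusted p of 0.00453, 0.00723 and 0.00723), with 1.25% of genes called. That fit left out the ABC line lowest in PIM2 (U2932) and the GCB line highest in SOCS3 (DOHH2). The larger differences of these genes therefore follow partly from the choice of lines. IL10 rested on SUDHL16: without that GCB line the difference was 4.29 with an adjusted p of 0.00484. With library size alone as scaling the median of all genes moved by 0.26 log2 units and the calls split into 49 higher and 1 lower, and with upper-quartile factors by 0.20 and into 44 and 4. SOCS3, PIM2 and STAT3 stayed past the threshold under both.

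In MCL against GCB lines SOCS3 was the member that passed the test, at 4.95 ± 0.81 log2 units or 31-fold higher (SE, 9 against 14 lines, edgeR adjusted p = 0.000257). Here 105 of 2406 genes were called, or 4.36%, and 2.37% were higher. The medians were much closer than 31-fold, at 7.47 CPM in MCL and 3.08 CPM in GCB, and the highest MCL lines were SP49, JVM2 and SP53. The lower MCL lines overlapped the GCB lines, and the difference without SP49 was 3.77 (adjusted p = 0.00178). Under limma-voom the difference was 2.70 and the call was lost (adjusted p = 0.0913). Without the 5 lines low in CCND1, where 3.12% of genes were called, it was 4.29 (adjusted p = 0.00127), and without U2932, SSK41 and DOHH2, where 5.11% were, 5.13 (adjusted p = 0.000434). PIM2 gave 1.16 ± 0.48 (adjusted p = 0.166), PIM1 1.10 ± 0.75, SOCS1 0.83 ± 0.66, STAT3 0.45 ± 0.40, JAK2 0.33 ± 0.35, JAK1 0.16 ± 0.40, IL10 -0.09 ± 1.01 and SOCS2 -0.26 ± 0.45, none of them past it. Without the 5 lines low in CCND1 the same was true, with STAT3 at 0.97 (adjusted p = 0.338), SOCS1 at 1.74 (adjusted p = 0.266) and PIM2 at 1.35 (adjusted p = 0.278). IL10 turned to 2.57 without SUDHL16 (adjusted p = 0.0491).

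MZL/HCL lines also had more SOCS3 than GCB lines, by 3.37 ± 0.84 log2 units or 10.3-fold (SE, 5 against 14 lines, edgeR adjusted p = 0.0152), with 79 genes called, or 3.28%, and 3.16% higher. Without VL51 the difference was 3.00 and its adjusted p 0.0822, and the call was also lost under limma-voom (3.14, adjusted p = 0.164) and on the authors' log2 values (3.11, adjusted p = 0.149). Without U2932, SSK41 and DOHH2 it was 3.57 (adjusted p = 0.0172), with 3.99% of genes called. SOCS1 gave 1.70 ± 0.76 (adjusted p = 0.311), JAK2 0.81 ± 0.41 (adjusted p = 0.405) and IL10 -1.62 ± 1.37 (adjusted p = 0.766), and the other 5 members lay between -0.36 and 0.64 with adjusted p of 0.741 or more. All 9 members passed the filter on low counts, SOCS3 through lines outside GCB, since no GCB line reached 10 CPM. Without any filter its differences from GCB were 4.53 in ABC, 4.95 in MCL and 3.37 in MZL/HCL, with adjusted p of 0.00216, 0.000258 and 0.0153.

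**Figure D3:**
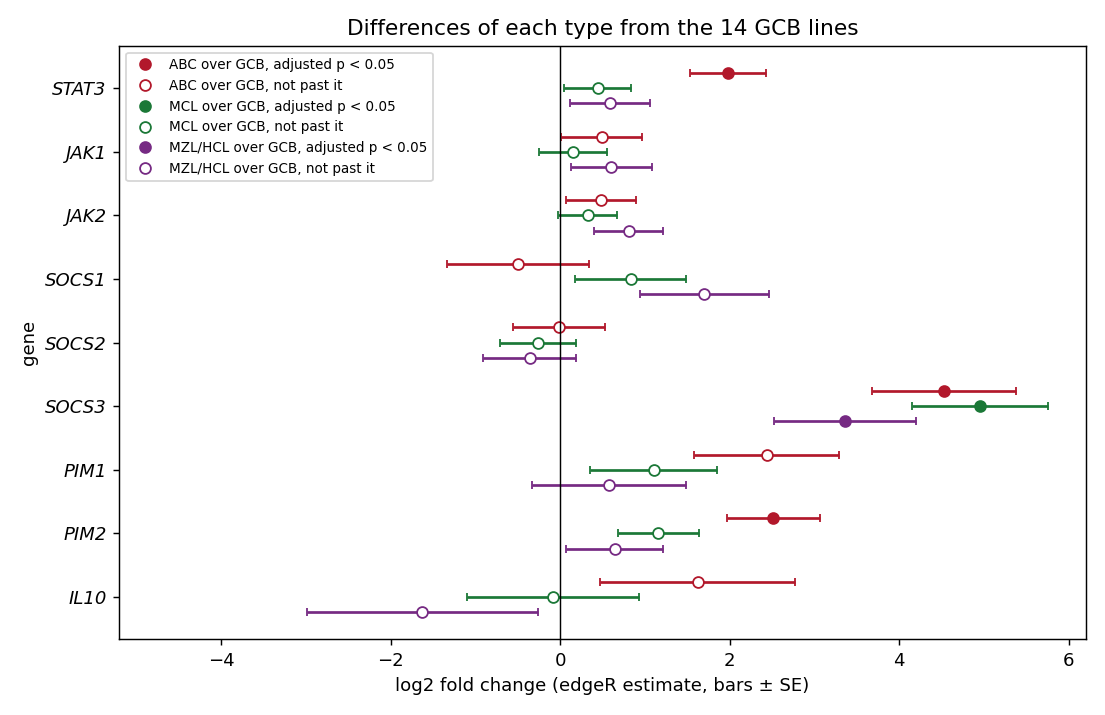
Points give the edgeR log2 fold change over the 14 GCB lines for ABC (5 lines), MCL (9) and MZL/HCL (5), bars the SE, and filled points those with an adjusted p under 0.05. SOCS3 is filled in all 3, at 4.53, 4.95 and 3.37, and STAT3 and PIM2 in ABC.

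The 3 types other than GCB were also set against each other. No member passed in ABC against MCL, ABC against MZL/HCL or MZL/HCL against MCL, where 9, 0 and 14 of 2406 genes were called, or 0.374%, 0% and 0.582%. With shares this low, no call among 9 members does not set them apart from other genes. Nor does it show the types alike: in ABC over MZL/HCL SOCS1 gave -2.20 ± 1.04 and PIM2 1.87 ± 0.75. The DESeq2 Wald test called 47, 31 and 34 genes in the same comparisons. The smallest adjusted p among members was 0.201, for STAT3 in ABC against MCL (1.53 ± 0.51). An unadjusted p under 0.05 was reached by 2 members in ABC against MCL (STAT3 and PIM2), by 3 in ABC against MZL/HCL (STAT3, SOCS1 and PIM2) and by 0 in MZL/HCL against MCL. Many other genes did the same, since by p PIM2 ranked 248 of 2406 in ABC against MCL. SOCS1 ranked 155 in ABC against MZL/HCL. For SOCS3 the order of medians was ABC (50.2 CPM), MZL/HCL (27.9), MCL (7.47) and GCB (3.08), and its differences among the first 3 were 1.17 ± 1.11 for ABC over MZL/HCL, -1.59 ± 1.04 for MZL/HCL over MCL and -0.42 ± 0.98 for ABC over MCL, within the spread of lines. Without the 5 MCL lines low in CCND1, 3 genes were called in ABC against MCL and 1 in MZL/HCL against MCL (0.125% and 0.0416%), none of them a member. STAT3 in ABC over MCL was then 1.01 (adjusted p = 0.398), PIM2 1.16 (adjusted p = 0.438) and SOCS3 0.24, and SOCS3 in MZL/HCL over MCL was -0.92. No member passed without U2932, SSK41 and DOHH2 either, where 4, 0 and 15 genes were called (0.166%, 0% and 0.623%) in ABC against MCL, ABC against MZL/HCL and MZL/HCL against MCL. With upper-quartile factors or library size alone the calls in ABC against MCL split into 8 higher and 0 lower, against 6 and 3 with TMM. The 6 comparisons share lines and are not independent.

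Every other gene was then fitted against the level of STAT3 across the 36 lines. SOCS3 and PIM2 rose with STAT3, by 1.71 ± 0.40 and 0.67 ± 0.16 log2 units per log2 unit of STAT3 (SE, n = 36 lines, edgeR quasi-likelihood test, adjusted p of 0.0079 and 0.0108). Of 2405 genes 161 were called, or 6.69%, with 83 rising (3.45%) and 78 falling. IL10 had a slope of 1.15 ± 0.38 (adjusted p = 0.0545), SOCS1 0.48 ± 0.27, JAK1 0.30 ± 0.17, SOCS2 0.23 ± 0.18, JAK2 0.14 ± 0.16 and PIM1 0.08 ± 0.28, none past the threshold. Without SUDHL2 and TMD8, the lines most extreme in STAT3, 5.65% of genes were called and 4.2% rose, SOCS3 gave 2.03 (adjusted p = 0.00417) and PIM2 0.44 (adjusted p = 0.334), and leaving out SUDHL2 alone put PIM2 at 0.52 (adjusted p = 0.134). With lymphoma type as a covariate 38 genes were called, or 1.58%, and the slopes within types were 1.16 for SOCS3 (adjusted p = 0.0901), 0.49 for PIM2 (adjusted p = 0.235) and 1.00 for IL10 (adjusted p = 0.275). With the log2 TMM factor as a covariate 223 genes were called, or 9.27%, with 4.62% rising, and SOCS3, PIM2 and IL10 passed (1.61, 0.67 and 1.15, adjusted p of 0.00367, 0.0113 and 0.0415). The split of calls depended on scaling, with 398 rising and 151 falling under upper-quartile factors and 809 and 161 under library size alone, which moved the median slope by 0.12, and with 146 and 231 in the DESeq2 Wald test.

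**Figure D4:**
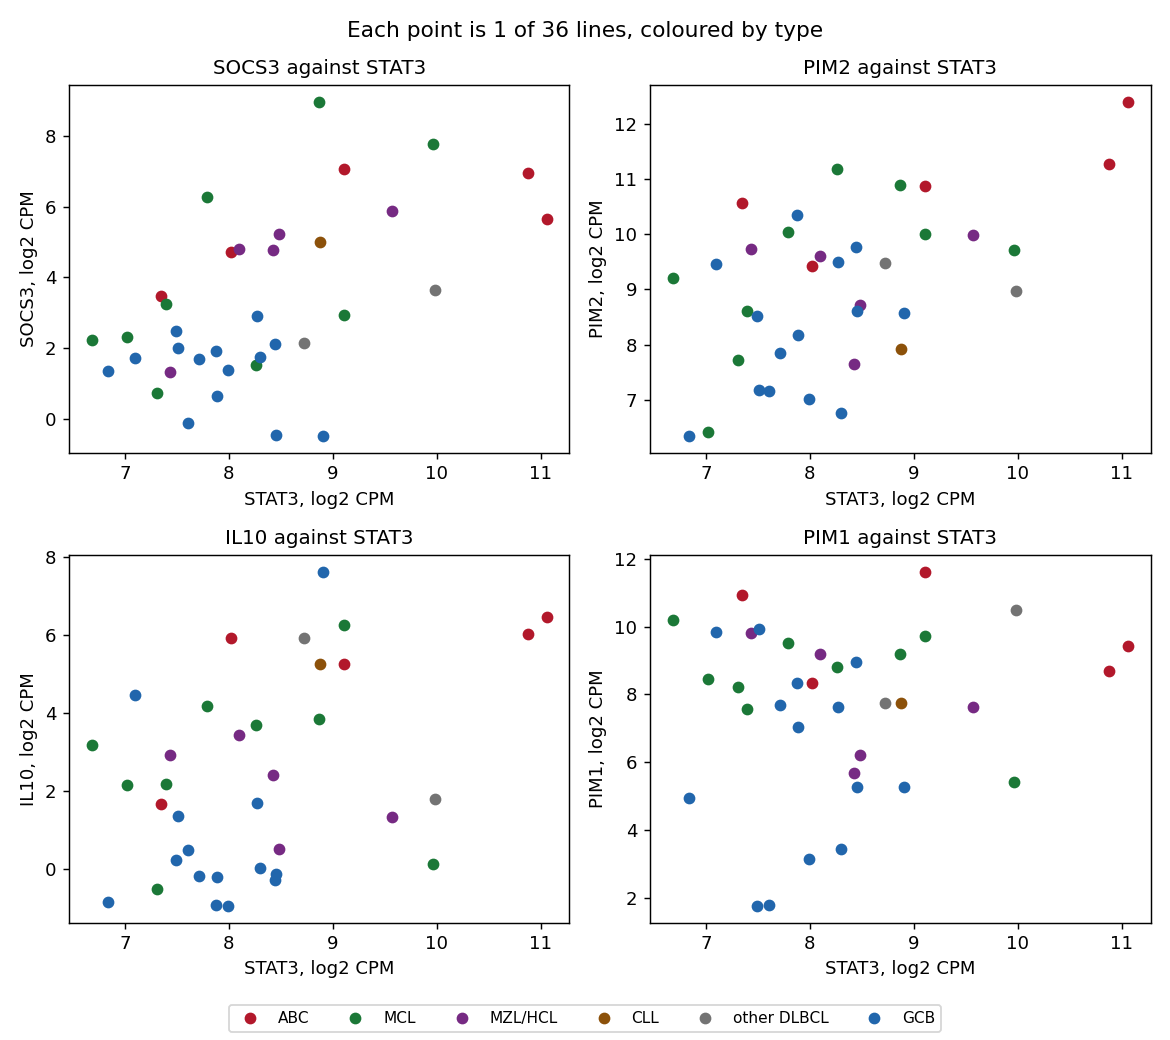
Each panel plots SOCS3, PIM2, IL10 or PIM1 (vertical, log2 CPM) against STAT3 (horizontal, log2 CPM) in the 36 lines, coloured by type. SOCS3 and PIM2 rise to the right (Spearman rho 0.497 and 0.449), and PIM1 does not (rho -0.001). GCB lines stay at the bottom of the SOCS3 panel at every STAT3 level they reach. The MCL lines UPN1, MINO, JEKO1 and GRANTA519, with KARPAS1718 and FARAGE, lie there too.

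As a description, the members' log2 levels were correlated with each other over the 36 lines, whose values share a library and its scaling factor. Of 36 pairs 29 had a positive and 7 a negative Spearman rho, with a median of 0.214. The highest were PIM1 with PIM2 (rho = 0.577, r = 0.571), JAK1 with PIM2 (rho = 0.544, r = 0.565), SOCS3 with PIM2 (rho = 0.522, r = 0.529), STAT3 with SOCS3 (rho = 0.497, r = 0.552) and PIM2 with IL10 (rho = 0.469, r = 0.512). PIM2 was thus in 4 of the 5 highest. With the 2 lines most extreme in the gene named first left out, r was 0.574, 0.473, 0.5, 0.479 and 0.416 for these pairs. STAT3 with PIM1 stood at rho = -0.001. Centring each type on its own mean lowered the median rho to 0.088, with STAT3 and SOCS3 at 0.434, PIM1 and PIM2 at 0.431, and SOCS3 and IL10 at -0.016 (0.421 before centring). The 3 SOCS genes were only loosely related, at rho = 0.305 for SOCS1 with SOCS3, 0.320 for SOCS2 with SOCS3 and 0.032 for SOCS1 with SOCS2, and SOCS2 with SOCS3 stood at 0.163 after regression on the TMM factor.

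**Figure D5:**
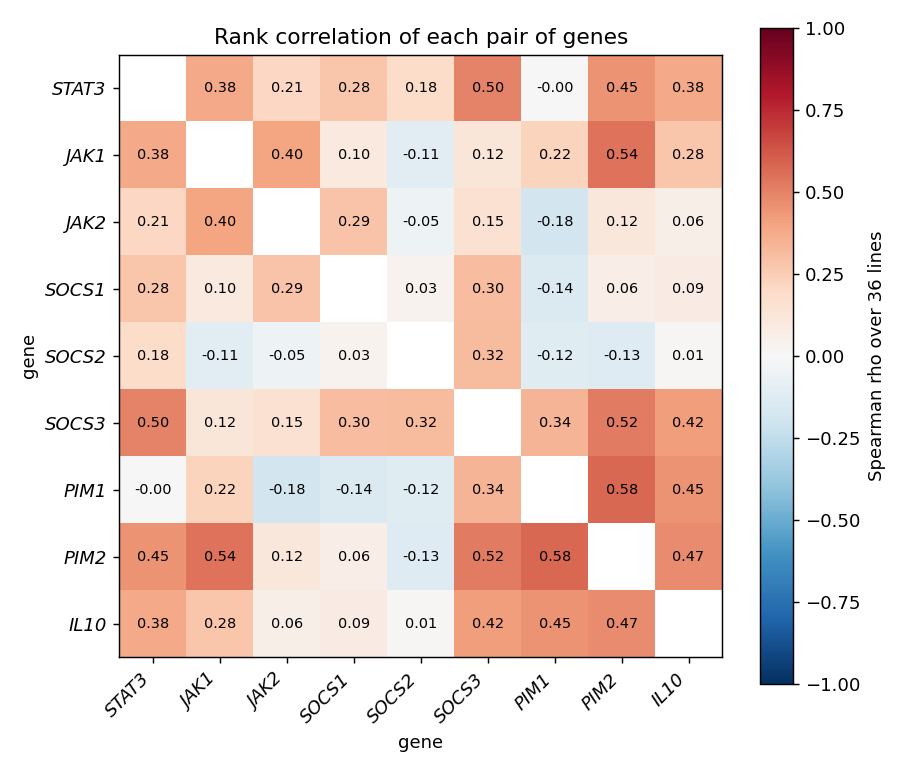
Cells give the Spearman rho of log2 CPM for each pair of the 9 genes over 36 lines, from blue (negative) to red (positive). PIM2 is red with PIM1 (0.577), JAK1 (0.544), SOCS3 (0.522), IL10 (0.469) and STAT3 (0.449), while SOCS2 is near 0 with most genes.

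Outside the members, the genes whose order of lines was most like that of STAT3 among 2397 were MVP, the major vault protein (rho = 0.759), TIMP1, a metalloproteinase inhibitor (0.676), the haem oxygenase HMOX1 (0.636), NOL3 (0.629) and the autophagy receptor SQSTM1 (0.629), each over 36 lines. For SOCS3 they were BATF, an AP-1 family transcription factor (0.777), PLA1A (0.756) and the surface receptor SLAMF7 (0.724), and for PIM2 the phosphatase gene PTPN1 (0.674), IRF4 (0.630) and KDM5B (0.571). IL10 was most like NCOA1 (0.777), which like IL10 was highest in SUDHL16, then HMOX1 (0.629) and CFLAR (0.581). SOCS1 was most like RUNX3 (0.697), MAP3K5 (0.648) and GADD45B (0.632). For PIM1 the order was TIMP2 (0.620), SLC2A13 (0.602) and BMF (0.590), for JAK1 ADM (0.628), TRIB1 (0.588) and PRKCB (0.580), and for JAK2 NQO1 (0.595), PKM (0.553) and TAP1 (0.539). SOCS2 was most like RAMP3 (0.767), CRYAA (0.749) and SLC3A1 (0.742), all 3 highest in MEC1.

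Other genes of the pathway were read in the same fits. In ABC against GCB lines none of 22 cytokine genes, 21 cytokine receptor genes, 8 other JAK and STAT genes, 4 neighbours of JAK2 or 14 Toll-like, B-cell receptor and NF-kB genes was called, by edgeR at an adjusted p under 0.05 (1, 4, 3, 1 and 3 of them had an unadjusted p under 0.05). At least 101 of 2406 genes were under that unadjusted threshold, the rank of PIM1 by edgeR p (0.00745). The full share was not counted, so these counts do not set the lists apart from other genes. Among 10 other negative regulators PTPN1, a phosphatase that acts on JAK kinases, was higher (1.70 ± 0.40, adjusted p = 0.0192), and among 30 STAT3 target genes BATF was (4.43 ± 0.70, adjusted p = 0.000368). The list medians were 0.29, 0.04, -0.27, 0.42, 0.02, -0.14 and 0.08 log2 units in the order named, against -0.12 over all genes. Without U2932, SSK41 and DOHH2 the targets PRDM1 (2.30 ± 0.60, adjusted p = 0.0435) and, of the NF-kB pathway genes, NFKBIA (2.31 ± 0.54, adjusted p = 0.0187) were called as well. DOHH2 was the GCB line highest in PRDM1 (572 CPM), so the PRDM1 call follows partly from leaving it out. BATF was also higher in MCL (2.69 ± 0.62, adjusted p = 0.00825) and in MZL/HCL lines (4.17 ± 0.70, adjusted p = 0.000497) than in GCB lines.

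In MCL against GCB lines 1 of 22 cytokines (IL7), 2 of 21 receptors (IL2RB at 3.46 ± 0.88 and IL6R, the receptor for IL-6, at 2.39 ± 0.65) and 3 of 30 target genes passed. Over all genes 4.36% were called, with 57 higher and 48 lower. The targets were CCND1 and BATF, which were higher, and BCL6, the germinal centre repressor, which was lower by 3.19 on the log2 scale (log2 change -3.19 ± 0.75, adjusted p = 0.0102). No gene of the other 4 lists was called there, out of 8, 10, 4 and 14 tested, of which 1, 3, 3 and 6 had an unadjusted p under 0.05. Over the whole panel at least 310 of 2406 genes were under it, the rank of PIM2 by unadjusted edgeR p (0.0214). Without the 5 lines low in CCND1, IL6R (1.41 ± 0.74, adjusted p = 0.358) and BCL6 (-3.83 ± 1.18, adjusted p = 0.0737) lost their calls and IL7 (3.15), IL2RB (4.40) and BATF (3.13) kept theirs. CCND1 was called too, but its level picked the lines left out, so that call was fixed by the choice. TIMP1 (3.80 ± 1.00), PDCD1LG2 (4.48 ± 1.12), NFKB1 (1.51 ± 0.33) and TNFAIP3 (2.98 ± 0.70) were then called higher (adjusted p from 0.00693 to 0.0288), where 64 of all genes were higher and 11 lower. Those same 4 genes also passed without U2932, SSK41 and DOHH2, as did CCND2 and IRF4, which stand in the marker sums that picked these lines. MZL/HCL against GCB lines had more calls in these lists, all upward, in a comparison where 76 of the 79 genes called over the panel were higher (3.16% of all tested): IL7 among 22 cytokines, IL2RB and CRLF2 among 21 receptors, STAT5A among 8 JAK and STAT genes, BATF, TIMP1, GADD45G and CD274 among 30 targets, and NFKB2 and TNFAIP3 among 14 NF-kB pathway genes, with none of 10 negative regulators (2 at an unadjusted p under 0.05). At least 248 of 2406 genes were under that unadjusted threshold, the rank of SOCS1 by edgeR p (0.0323). Without U2932, SSK41 and DOHH2, GADD45G lost its call (1.68 ± 0.58, adjusted p = 0.111), and LIF, IL6ST, IFNGR1, CCND2, CDKN1A and NFKB1 gained one. CCND2 stands in the marker sums that picked these lines. The checkpoint ligand genes beside JAK2, PDCD1LG2 (chromosome 9, 5510570 to 5571254) and CD274 (5450503 to 5470566), were 2 of 4 measured neighbours and were higher by 5.40 ± 1.20 (adjusted p = 0.00798) and 2.65 ± 0.77 (adjusted p of 0.05 after rounding, under the threshold), against 0.81 ± 0.41 for JAK2 itself, which did not pass. The medians of 30 target genes were 0.37 in MCL and 0.46 in MZL/HCL, against -0.28 and -0.09 over all genes, and 0.35 against -0.24 in MCL without the 5 lines low in CCND1.

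Along the level of STAT3, 5 of 30 target genes rose and none fell, where over all genes 83 of 2405 rose (3.45%) and 78 fell: CCND2 (1.87 ± 0.41), TIMP1 (1.75 ± 0.42), CD274 (1.30 ± 0.25), BATF (0.97 ± 0.24) and PRDM1, the plasma cell factor BLIMP1 (0.68 ± 0.18), with edgeR adjusted p from 0.00172 to 0.0155. IL2RB (1.83 ± 0.41) and CRLF2 (1.39 ± 0.33) of the 21 receptors, JAK3 (0.73 ± 0.19) of the 8 JAK and STAT genes, PTPN1 (0.48 ± 0.12) of the 10 negative regulators, CD274 and PDCD1LG2 (2.27 ± 0.44) of the 4 JAK2 neighbours, and NFKB2 (0.71 ± 0.20) and NFKBIA (0.78 ± 0.14) of the 14 NF-kB pathway genes also rose, and none of the 22 cytokines passed (3 at an unadjusted p under 0.05). The slope of JAK2 itself was 0.14 ± 0.16. Among all genes called whose sign did not turn without SUDHL2 and TMD8, the largest positive slopes were those of ANXA1 (3.77 ± 1.01), CACNA2D1 (2.87 ± 0.88), PLA1A (2.40 ± 0.62), SLAMF7 (2.29 ± 0.52), PDCD1LG2, TNFRSF8, the gene of CD30 (2.11 ± 0.44), PIK3R5 (1.96 ± 0.40), CCND2, IL1R2 (1.86 ± 0.32) and IL2RB. The largest negative slopes among them were those of TUBB3 (-1.56 ± 0.36), ALDH2 (-1.29 ± 0.35), MME (-1.27 ± 0.38), MYBL1 (-1.25 ± 0.34), IRS1 (-1.08 ± 0.28), CD24 (-0.99 ± 0.21), DMC1, APOC2, CDKN1C and LTBP1, and the germinal centre markers MME and MYBL1 are among them. With type as a covariate IL2RB, CCND2, TIMP1, PDCD1LG2 and NFKBIA of the listed genes still passed (slopes of 1.32, 1.66, 1.57, 1.69 and 0.85), and MME and MYBL1 did not (adjusted p of 0.119 and 0.156).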

How the data were processed

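Per the labels' protocols, pelleted cells were lysed in buffer with proteinase K, each sample was run once, and the barcoded library was read on a NextSeq. The submitters' processing notes name genome build hg38. Which aligner and counting method were used, and whether strand was, is not given in the sources used here. In the deposited count table every value was a whole, unscaled count of a target in a library. Its 10 control probes (at most 0.0265% of a library's counts) stayed out of library sizes and tests. The deposited log2 table was the authors' rescaling of the same counts, log2 of count over a library factor with 1 added, matched here within 0.00527. It served as an alternative.

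Counts were scaled by TMM in edgeR 4.0.16 (R 4.3.3) and turned into CPM, and into log2 CPM (prior count 2). Genes that reached 10 CPM in 4 or more lines were tested, 2406 of 2549. One quasi-likelihood fit over the 33 lines of 4 types gave 6 comparisons, and another over 36 lines gave the slope on STAT3, each with Benjamini-Hochberg adjustment over all genes tested and a threshold of 0.05. The SE is the estimate over the root of its F statistic. Both fits were also run on counts simulated from edgeR's own estimates of spread, with changes planted evenly over a type or along STAT3. Such data cannot show how the tests treat differences that rest on single lines. Alternatives used DESeq2 1.42.0 and limma 3.58.1. Coordinates are those of GENCODE release 29 on GRCh38, promoter sequences those of RefSeq. Genes were named by rule: the 9 members, listed pathway genes past the threshold, the 5 genes most like STAT3 and 3 most like each other member by rho, and the 10 largest slopes in each direction among genes called whose sign did not turn without the 2 lines most extreme in STAT3. The 7 pathway lists held 143 genes, of which 111 were in the panel and 105 were tested, and some genes stood in more than 1 list. The members, the types and the lists were chosen with earlier results of these data known. Depth limits low values: intervals cover counting error only.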

Additional observations from a re-analysis of the deposited data

Results flagged for a closer look

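Within the types of 5 and 9 lines (ABC, MCL and MZL/HCL), each member was checked for a line whose gap to the nearest other line, divided by the range of the group, passed Dixon's 95% critical value. Of 27 such groups 2 had one, and chance gives about 1 in 20. SOCS3 in KARPAS1718 had a log2 CPM of 1.33, far below the other 4 MZL/HCL lines, of which the nearest was HC_1 at 4.79 (ratio 0.762, critical value 0.71). IL10 in RIVA had a log2 CPM of 1.67, far below the other 4 ABC lines, of which the nearest was HBL1 at 5.25 (ratio 0.748). RIVA was also the ABC line with the lowest STAT3 (163 CPM) and SOCS3 (11 CPM), and KARPAS1718 the MZL/HCL line with the lowest STAT3 (172 CPM).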

How the results depend on the processing

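SOCS3 was called higher in ABC than in GCB lines in all 12 alternatives to the analysis and in all 19 fits without 1 line (adjusted p up to 0.0474). The alternatives include the fits without the 5 MCL lines low in CCND1 and without U2932, SSK41 and DOHH2, both chosen after seeing the data. The former kept every ABC and GCB line, and the latter left out the GCB line highest in SOCS3. The cause of the changes below was not tested. STAT3 in ABC against GCB lost its call under limma-voom (1.41, adjusted p = 0.149), the authors' log2 values (1.34, 0.19) and FARAGE and RCK8 counted as GCB (1.68, 0.0714), and PIM2 under the authors' log2 values (2.62, 0.0542). SOCS3 lost it in MCL under voom (2.70, 0.0913) and in MZL/HCL under voom (3.14, 0.164) and the authors' log2 values (3.11, 0.149). PIM1 and IL10 in ABC gained one under voom (3.71, 0.0334 and 4.46, 0.0123). For the slope on STAT3, IL10 gained a call with upper-quartile factors, library size alone, DESeq2 and the TMM factor as a covariate (adjusted p from 0.00787 to 0.0415), and SOCS2 with library size alone (0.56, 0.0201). In all, 632 recomputed type differences and 95 slopes of members kept their side of the threshold, 7 and 3 lost it, and 2 and 5 gained it, fits without 1 line aside. Most of those kept were not called to begin with. Of 12 alternatives each, calls against GCB held in 9 for STAT3 and 11 for PIM2 in ABC. For SOCS3 they held in 12 in ABC, 11 in MCL and 10 in MZL/HCL. Of 13 alternatives for the slope, the call held in 12 for SOCS3 and 11 for PIM2. IL10 in MCL against GCB turned sign in the fits without 1 line, from -1.04 to 2.57.

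Genes called in ABC against GCB numbered 42, and 125 (52 higher, 73 lower) with DESeq2, 5 with the authors' log2 values and 26 with FARAGE and RCK8 as GCB. In MCL against GCB they numbered 105, and 214 with DESeq2, 57 with voom, 67 with the authors' log2 values, 182 with the TMM factor as a covariate and 62 with FARAGE and RCK8 as GCB. In MZL/HCL against GCB they numbered 79, and 14 with voom, 7 with the authors' log2 values and 37 with FARAGE and RCK8 as GCB. MZL/HCL against MCL gave 14, and 5 with upper-quartile factors, 5 with library size alone, 9 with a filter at 50 CPM, 34 with DESeq2, 1 with voom, 1 with the authors' log2 values and 1 without the 5 MCL lines low in CCND1. ABC against MCL gave 9, and 4 with the filter at 50 CPM, 47 with DESeq2, 1 with voom, 1 with the authors' log2 values 3 without those 5 lines and 4 without U2932, SSK41 and DOHH2. ABC against MZL/HCL gave 0, and 31 with DESeq2. The slope on STAT3 gave 161, and 549 with upper-quartile factors, 970 with library size alone, 377 with DESeq2, 81 with the authors' log2 values and 38 with type as a covariate. Leaving out 1 line gave 24 (without HBL1) to 53 in ABC against GCB, 67 (without JVM2) to 131 in MCL against GCB, 42 (without HAIR_M) to 92 in MZL/HCL against GCB, 7 to 27 in MZL/HCL against MCL, 3 to 18 in ABC against MCL, 0 to 1 in ABC against MZL/HCL, and 121 to 186 for the slope. Leaving out the 5 lines low in CCND1, and U2932, SSK41 and DOHH2, was chosen after seeing the data. No paired analysis was possible because each line was measured once and replicate numbers only name lines. IL10 in 7 and SOCS3 in 2 of the 14 GCB lines were not above the highest control probe, so depth limits how far the low levels of those lines can be told apart.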
